A study of Mus musculus with 24 samples.

Results

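The transcription factors that specify oligodendrocytes (OLs) and drive their differentiation were followed in the spinal cord after contusive spinal cord injury (SCI). They were 10 genes, Sox10, Sox8, Olig1, Olig2, Nkx2-2, Nkx6-2, Myrf, Zfp488, Zfp536 and Tcf7l2, taken by name from a table of 21965 genes. All 10 passed the filter on low counts, as did 17167 genes in all. The mice were OL-Ribotag mice, described as female, in which tamoxifen switches on a hemagglutinin-tagged ribosomal protein in OLs. Mice of every group, the naive one included, were OL-Ribotag mice, and the tag was induced with tamoxifen before injury. Immunopurified tagged ribosomes gave the OL translatome and the lysate gave total RNA. The groups were uninjured naive mice and mice on days post-injury (dpi) 2, 10 and 42 after a 50 kdyn contusion at T9, at an age of 10 to 12 weeks by the labels, where the methods of the study give a different range. Each of the 8 groups had 3 libraries, and each library held tissue pooled from 2 mice. Both libraries of dpi 2 pool 2 held counts of Y-linked genes (2604 in total RNA and 2414 in OLs), and 7 factors were called in OLs on dpi 2 with and without that pool. With it, 18.4% of all tested genes were called higher and 20% lower. Some calls of Olig1 and Olig2 in other comparisons were lost without that pool, as given below. By the methods of the study, naive tissue was collected on the same day as dpi 42 tissue. On dpi 2 and dpi 10 injury therefore cannot be told apart from age or from the time since tamoxifen. Schwann cells can carry the tag too, and it does not separate them from OLs.

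The OL lineage rests on a small set of DNA-binding proteins. OLIG2 and NKX2-2 act in progenitors, SOX10 and SOX8 are related HMG-box proteins that bind the same short motif, and SOX10 switches on Myrf. MYRF, released from a membrane anchor by self-cleavage, then activates the myelin genes together with SOX10. ZFP488 and NKX2-2 repress genes that hold differentiation back, TCF7L2 meets beta-catenin or co-repressors in newly formed OLs, and NKX6-2 marks myelinating OLs. Most of these factors stay expressed in the mature OL.

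RefSeq promoter sequences (GRCm38.p6) were at hand for 7 of the 10 genes: Nkx2-2, Nkx6-2, Olig2, Sox8, Tcf7l2, Zfp488 and Zfp536. The 250 bases before the RefSeq start are printed 5′ to 3′ on the gene's own strand for Sox8, which fell in OLs on dpi 2, and for Nkx6-2, which rose. Both lie on the minus strand, at chr17:25570687-25570936 (Sox8) and chr7:139582798-139583047 (Nkx6-2). Capitals mark every match to 6 motifs searched on both strands.
Sox8: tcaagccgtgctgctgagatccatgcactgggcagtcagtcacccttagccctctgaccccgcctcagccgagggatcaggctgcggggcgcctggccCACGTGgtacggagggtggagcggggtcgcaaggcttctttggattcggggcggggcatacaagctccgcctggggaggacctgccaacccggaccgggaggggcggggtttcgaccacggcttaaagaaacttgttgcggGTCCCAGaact
Nkx6-2: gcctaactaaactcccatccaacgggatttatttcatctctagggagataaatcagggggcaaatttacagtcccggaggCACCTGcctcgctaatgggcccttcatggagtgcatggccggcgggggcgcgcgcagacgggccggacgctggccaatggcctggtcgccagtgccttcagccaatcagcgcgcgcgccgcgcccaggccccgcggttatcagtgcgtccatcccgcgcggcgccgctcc

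The motifs were the E-box CANNTG bound by bHLH proteins such as OLIG1 and OLIG2, the SOX cores ACAAT and ACAAAG, the MYRF motif CTGGNAC, the TCF/LEF motif CTTTGAT and the homeodomain motif TAATTA. Of 32851 windows of this length in the same set, 66.2% held CANNTG, 27.7% ACAAT, 16.5% ACAAAG, 16.1% CTGGNAC, 3.21% CTTTGAT and 4.84% TAATTA. The Olig2 window held 1 ACAAT on the opposite strand and no CANNTG. The Sox8 window held 1 CANNTG, and 1 CTGGNAC on the opposite strand that began 11 bases before the start. The Zfp536 window held 1 TAATTA and no other motif, and the Nkx6-2 window held 1 CANNTG alone. Of the other windows, Nkx2-2 had 3 CANNTG and 1 ACAAT, Tcf7l2 had 2 ACAAT before its upstream start and 1 ACAAAG before its downstream start, and Zfp488 had no match. None of the 6 motifs was shared by Olig2, Sox8 and Zfp536. The gene spans given below are those of GENCODE, whose outermost starts can differ from RefSeq's. The Zfp536 and Nkx2-2 windows and the window before the downstream start of Tcf7l2 lie inside them. So does the end of the Olig2 window with its match. A match describes the letters of the window and does not show a bound site.

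Libraries held 25840127 to 32987841 counts. The labels of 2 dpi 42 libraries (total replicate 2 and OL replicate 1) gave opposite kinds of RNA in different fields, and they were grouped by the field that matches the table's columns. Their summed myelin levels, 25300 and 116000 CPM, match those groups. Levels are CPM, counts scaled to the library total, after TMM scaling of library sizes. Enrichment and changes are log2 fold changes with their standard error, and a gene was called when its q, the adjusted p over all tested genes, was under 0.05. Cell type markers were checked first. In all 4 conditions the OL translatome held more of all 17 myelin genes than total RNA did, and all 9 neuron, 8 microglia and macrophage and 5 endothelial markers were lower. Markers of OL progenitors (OPCs) were lower for 9 of 11 genes on dpi 42 and for 11 of 11 in the other conditions. Of 6 newly formed OL markers, 4, 4, 2 and 2 were higher and 1, 1, 2 and 2 lower. Of all tested genes, 24.9%, 24.8%, 25.2% and 24.9% were higher and 30.5%, 28.8%, 28.8% and 28.9% lower. Astrocyte markers were not depleted as a group, with 0, 0, 1 and 0 of 7 called lower. Their summed level was 957 to 2600 CPM in 7 OL libraries and 6340 to 12300 CPM in the other 5 (naive replicate 3, dpi 2 replicate 3, dpi 10 replicate 2, dpi 42 replicates 1 and 2). Values without those 5 libraries are given beside results whose call they change, an alternative chosen after these sums were seen. It leaves only replicate 3 of the dpi 42 OL libraries, so its values for dpi 42 OL libraries are given without q. The 8 Schwann cell markers summed to 72.1, 85.3 and 775 CPM in naive OL libraries and to 1360 to 1580 CPM on dpi 42, and 2, 1, 3 and 1 of them were called enriched. The 8 microglia and macrophage markers rose in OL libraries at each time, from 14 to 20.5 CPM in naive to 90.1 to 120 CPM on dpi 2, 251 to 296 CPM on dpi 10 and 176 to 304 CPM on dpi 42. The part of these other cells in the results below was not tested, except where a value is given.

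In naive tissue every one of the 10 factors was higher in the OL translatome than in total RNA (10 called of 10, with 24.9% of all tested genes called higher and 30.5% lower). The enrichment ran from 1.25 (Zfp488) to 2.95 (Sox10) on the log2 scale, with a median of 2.3 against -0.27 over all tested genes. On dpi 2, 9 of 10 were enriched (24.8% of genes higher, 28.8% lower), on dpi 10, 8 of 10 (25.2% and 28.8%), and on dpi 42, 8 of 10 (24.9% and 28.9%). The exceptions were Tcf7l2 at all 3 times after SCI and Zfp488 on dpi 10 and dpi 42. Without the 5 libraries high in astrocyte markers, which leaves 1 dpi 42 OL library, the enrichment of Zfp488 on dpi 42 was 0.79. The other 8 were called enriched in each condition and kept that call under every alternative and with any one library left out. Their lowest value was 1.025, for Olig2 on dpi 2 (SE 0.17, q = 2.98e-05).

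**Figure D1:**
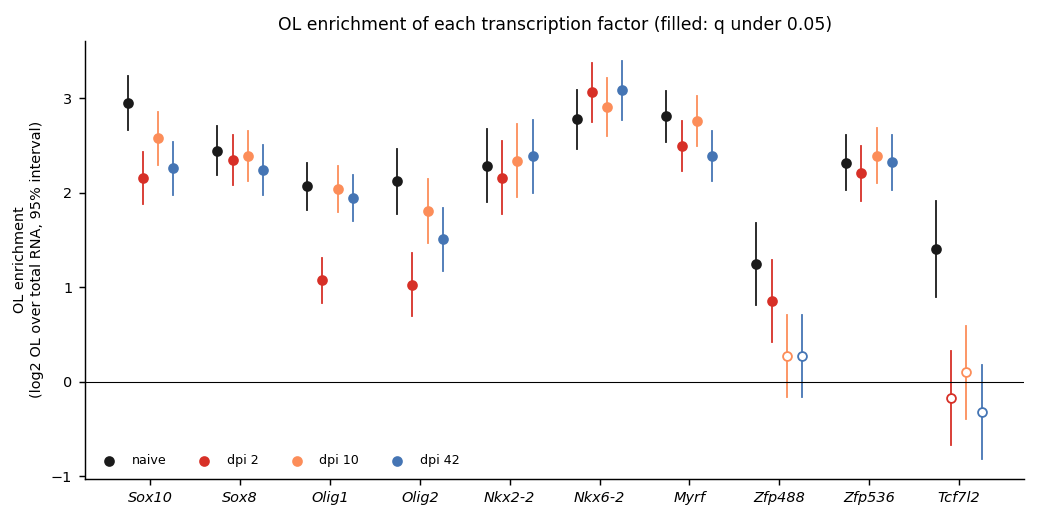
OL enrichment of each transcription factor (y axis, log2 of OL translatome over total RNA) in naive tissue and on dpi 2, 10 and 42, with points for the fitted value, bars for its 95% interval and filled points for q under 0.05. Olig1 and Olig2 dip on dpi 2, Zfp488 is near 0 from dpi 10 and Tcf7l2 lies near 0 at all 3 times after SCI.

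Per kilobase of exon, so that genes can be compared, Olig1 was the most abundant factor in naive OL libraries at 714 ± 82.2 CPM per kb (SD, n = 3), followed by Sox10 at 353 ± 58.6. Myrf (214 ± 29.8), Nkx6-2 (169 ± 26.1), Olig2 (157 ± 15.2) and Sox8 (140 ± 12.4) came next, and neighbours among these 4 overlapped. Nkx2-2 (35.9 ± 10.2), Zfp536 (16.6 ± 0.771), Zfp488 (4.45 ± 0.678) and Tcf7l2 (1.43 ± 0.159 CPM per kb) followed without overlap. On dpi 2 Nkx6-2 stood second at 286 ± 52.7 CPM per kb, overlapping Sox10 at 235 ± 22.5, and Olig2 stood sixth at 68.1 ± 9.47. In total RNA of naive tissue the order began with Olig1 at 170 ± 5.23, Sox10 at 45.7 ± 5.2 and Olig2 at 36.1 ± 2.36 CPM per kb. Tcf7l2 was last in all 8 groups by the exon union, whereas by the longest transcript it changed places with Zfp488 in 4 groups (dpi 2 total, dpi 10 total and OL, dpi 42 total).

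**Figure D2:**
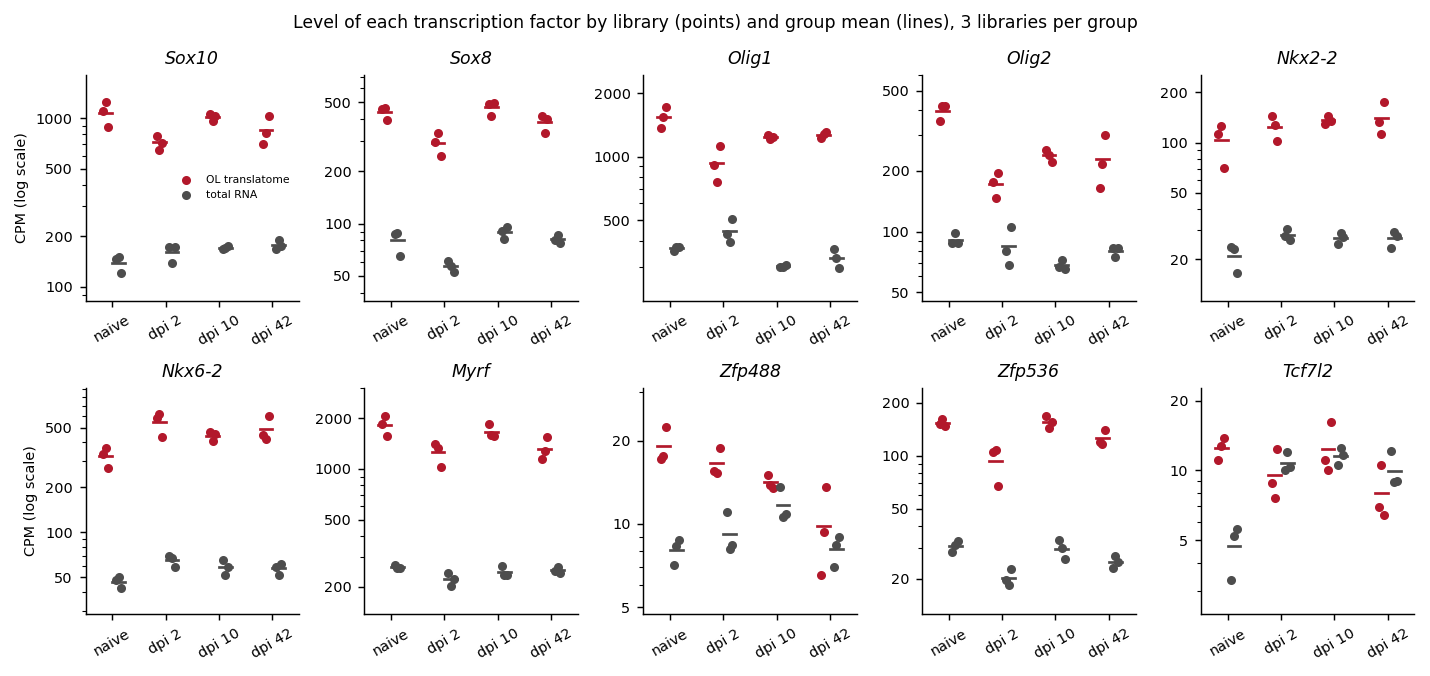
CPM of each transcription factor (log scale, own range per panel) in every library, with OL translatome in red, total RNA in grey, and a line at the mean of the 3 libraries of a group. For 8 factors the OL libraries lie well above total RNA at all times, and for Zfp488 and Tcf7l2 the gap closes after SCI.

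The first question was how the factors changed in OLs after SCI. On dpi 2, 7 of 10 were called in the OL translatome: Olig2, Olig1, Zfp536, Sox8, Sox10 and Myrf fell and Nkx6-2 rose (18.4% of tested genes were called higher and 20% lower). The median of the 10 was -0.56, against 0 over all tested genes. Of these, only the fall of Olig2 went past 1 on the log2 scale, the limit used in the study. On dpi 10 only 2 were called, Olig2 lower and Nkx6-2 higher (9.62% of genes higher, 8.59% lower; 4 of the 10 had an unadjusted p under 0.05). On dpi 42, 4 were called, with Olig2, Myrf and Zfp488 lower and Nkx6-2 higher (16.2% and 16.9%; 8 had an unadjusted p under 0.05). The dpi 42 count was 8, with 1 higher and 7 lower, when a total RNA library was the TMM reference, and 2 when only the groups compared were fitted. In these bulk samples fewer cells of a type and less RNA per cell cannot be told apart. The dpi 2 count of calls was 7 with each library left out in turn and without the 5 libraries high in astrocyte markers, and 5 with an offset for gene length and GC content, where Myrf and Nkx6-2 were not called.

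**Figure D3:**
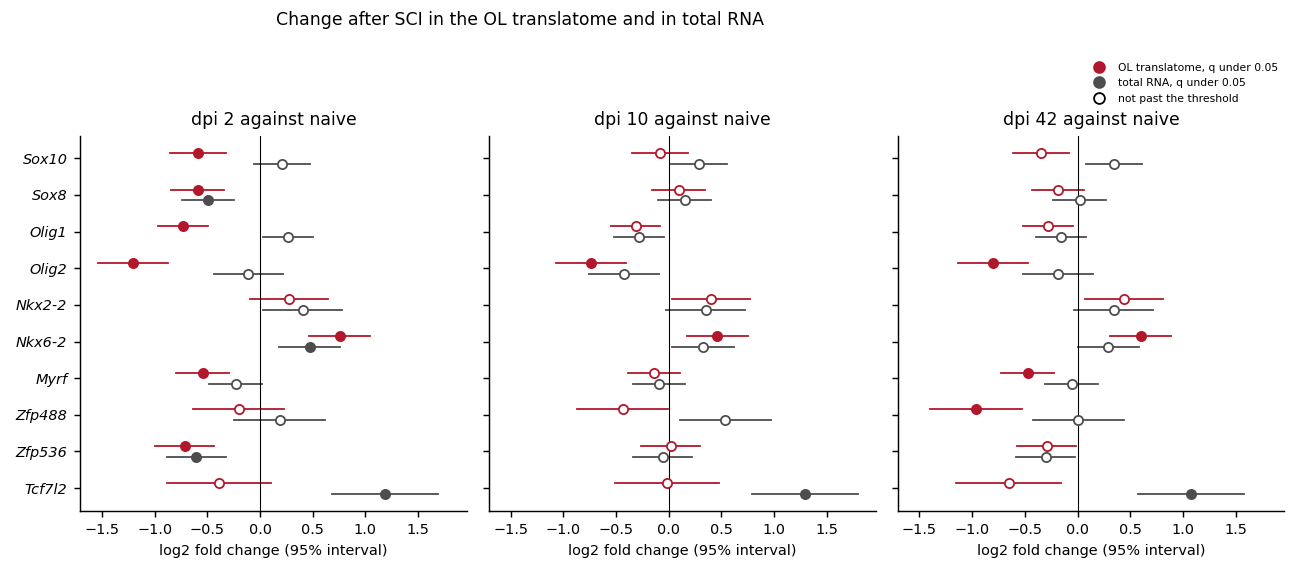
Log2 fold change against naive of each transcription factor in the OL translatome (red) and in total RNA (grey) on dpi 2, 10 and 42 (x axis, 1 panel per time), with bars for the 95% interval and filled points for q under 0.05. On dpi 2, 6 filled OL points lie below 0 and that of Nkx6-2 above it, and Tcf7l2 stands above 1 in total RNA at each time.

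Differences between the injured groups were tested directly. From dpi 2 to dpi 10, 6 of 10 rose in the OL translatome: Zfp536, Sox8, Sox10, Olig2, Olig1 and Myrf (11.7% of tested genes were called higher and 10.6% lower). They were the 6 that had fallen on dpi 2, and both comparisons use the same dpi 2 libraries. From dpi 10 to dpi 42 no factor was called with edgeR's quasi-likelihood test or with the DESeq2 Wald test (3.28% of genes higher, 3.9% lower), and 5 had an unadjusted p under 0.05 in the former. Between dpi 2 and dpi 42, Olig1, Zfp536 and Sox8 were higher on dpi 42 and Zfp488 lower (8.91% of genes higher, 8.66% lower). Without the 5 libraries high in astrocyte markers, dpi 10 against dpi 2 was also called for Tcf7l2 (0.79, q = 0.032) and Nkx6-2 (-0.33, q = 0.0429). That leaves only replicate 3 of the dpi 42 OL libraries, in which Olig2 was 0.95 and Sox10 0.57 higher than on dpi 2. It held the most Olig2 and Sox10 of the dpi 42 OL libraries.

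The same comparisons were made in total RNA. On dpi 2, 4 factors were called, Tcf7l2 and Nkx6-2 higher and Zfp536 and Sox8 lower (16.4% of genes higher, 20.8% lower). On dpi 10 and dpi 42 only Tcf7l2 was called, and higher (13.9% and 18.2% of genes higher and lower on dpi 10, 10.4% and 12.1% on dpi 42). The fit takes 1 spread per gene from OL and total RNA libraries together. When only the groups compared were fitted, more factors were called in total RNA at each time. An unadjusted p under 0.05 was reached by 6, 6 and 3 factors at the 3 times. Sox10, Olig1, Olig2 and Myrf, which fell in OLs on dpi 2, were not called in total RNA at any time. Leaving out the 5 OL libraries high in astrocyte markers keeps the counts of total RNA libraries but changes their TMM scaling and the shared fit. All 10 values in total RNA then moved up at each time. On dpi 2, Tcf7l2 went from 1.19 to 1.34 and Olig2 from -0.11 to 0.04. On those terms Sox10 was called higher at all 3 times (0.36 with q = 0.00664, 0.41 with q = 0.0026 and 0.45 with q = 0.00189). Olig1 was called higher on dpi 2 (0.41, q = 0.00145). Nkx2-2 was then called higher at all 3 times as well (0.55, 0.47 and 0.44), Nkx6-2 on dpi 10 and dpi 42 (0.45 and 0.39), and Zfp488 and Sox8 on dpi 10 (0.66 and 0.27). With library sizes alone as the scaling, 5 factors were called higher and 1 lower in total RNA on dpi 2, and with a total RNA library as the TMM reference, 4 higher and 2 lower.

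Differential OL enrichment compares enrichment after SCI with enrichment in naive tissue, with the libraries of a tissue pool paired. On dpi 2 it fell for Tcf7l2, Olig2, Olig1 and Sox10 (7.5% of genes were called higher and 5.81% lower). On dpi 10 it fell for Tcf7l2 alone (4.49% and 3.14%; 3 of 10 had an unadjusted p under 0.05), and on dpi 42 for Tcf7l2, Zfp488, Sox10 and Olig2 (4.34% and 3.51%). No factor gained enrichment by this test. Without the 5 libraries high in astrocyte markers, Myrf was also lower on dpi 2 (-0.48, q = 0.0128) and Sox10 on dpi 10 (-0.49, q = 0.0153). The dpi 42 calls were weak: fitted on the naive and dpi 42 libraries alone, none of the 4 had q under 0.05 (q = 0.0516 for Tcf7l2, 0.0602 for Sox10, 0.106 for Zfp488 and 0.154 for Olig2).

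The SOXE proteins come first. Sox10 (chr15:79154908-79165240, minus strand) encodes the factor that OLs need to differentiate and to keep myelin. In naive OL libraries it stood at 1106, 1240 and 886 CPM, and on dpi 2 at 787, 650 and 715 CPM. On dpi 10 it stood at 1064, 962 and 1026 CPM, and on dpi 42 at 698, 815 and 1031 CPM. All dpi 2 libraries were below all naive libraries, while dpi 10 and dpi 42 overlapped with naive. The fall on dpi 2 was -0.59 (SE 0.136, q = 0.00158), or 1.5-fold, and the rise from dpi 2 to dpi 10 was 0.5 (SE 0.135, q = 0.00958). The difference from naive was -0.08 on dpi 10 (q = 0.765) and -0.35 on dpi 42 (95% interval -0.61 to -0.08, q = 0.0553). Total RNA held 121 to 151 CPM in naive tissue and 139 to 172, 168 to 174 and 168 to 191 CPM on dpi 2, 10 and 42. The enrichment of Sox10 went from 2.95 in naive to 2.16 on dpi 2 and 2.26 on dpi 42, a loss of 0.79 (SE 0.137, q = 0.00254) and 0.70 (SE 0.137, q = 0.00854).

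Sox8 (chr17:25565892-25570686, minus strand), a relative of Sox10 that shares its motif, followed the same course in OLs. It stood at 457, 461 and 392 CPM in naive OL libraries, and 294, 330 and 246 CPM on dpi 2. The later libraries held 486, 417 and 495 CPM (dpi 10) and 418, 334 and 402 CPM (dpi 42). The dpi 2 libraries did not overlap with the naive ones and the later libraries did. Sox8 fell by 0.59 on dpi 2 (SE 0.127, q = 0.000809) and rose by 0.69 from dpi 2 to dpi 10 (SE 0.127, q = 0.000451). Between dpi 2 and dpi 42 it differed by 0.41 (q = 0.0297), a call lost without dpi 2 OL replicate 1 or 3 or dpi 42 OL replicate 1 or 3 (0.44, 0.31, 0.37 and 0.36). That call was also lost with the length and GC offset (0.32), without the 2 libraries with conflicting labels (0.34) and with only the groups compared (0.39). The difference was 0.41 without the 5 libraries high in astrocyte markers, with 1 dpi 42 OL library left. Sox8 also fell in total RNA, from 87.2, 88.2 and 65.1 to 61.1, 57.2 and 52.5 CPM on dpi 2 (-0.49, SE 0.128, q = 0.00405), with -0.27 (q = 0.0843) when library sizes alone set the scale. Its differential enrichment on dpi 2 was -0.12 (95% interval -0.38 to 0.15, q = 0.715). An antisense gene, 2810468N07Rik, shares 329 bases of exon with Sox8 on the other strand, and the strand setting of the counting is not stated, so reads of the pair cannot be told apart.

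The ratio of Sox8 to Sox10 counts within a library needs no scaling. In total RNA it was 0.599, 0.584 and 0.537 in naive tissue and 0.355, 0.41 and 0.307 on dpi 2, with no overlap (difference -0.69 on the log2 scale, exact permutation test, two-sided, p = 0.1). In OL libraries it was 0.372 to 0.443 in naive and 0.344 to 0.508 on dpi 2, and the groups overlapped. With 3 against 3 libraries 0.1 is the smallest p this test can give, and over the 24 ratio comparisons made the smallest adjusted p was 0.185.

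The bHLH pair OLIG1 and OLIG2 is encoded by neighbouring genes on chromosome 16. Olig2 (chr16:91225457-91228677, plus strand), the gene that sets OL fate, showed the largest fall of the 10 in OLs on dpi 2. It stood at 353, 422 and 418 CPM in naive OL libraries and at 176, 147 and 194 CPM on dpi 2. On dpi 10 it stood at 254, 240 and 222 CPM and on dpi 42 at 165, 217 and 302 CPM. All 9 OL libraries after SCI lay below the 3 naive ones. The change was -1.21 on dpi 2 (SE 0.17, q = 8.56e-06), a 2.31-fold fall, -0.74 on dpi 10 (SE 0.169, q = 0.00386) and -0.80 on dpi 42 (SE 0.169, q = 0.000923). Without the 5 OL libraries high in astrocyte markers the dpi 42 value was -0.37, with 1 dpi 42 OL library left. On the same terms dpi 2 and dpi 10 gave -1.32 (q = 7.38e-07) and -0.70 (q = 0.0017). The rise from dpi 2 to dpi 10 was 0.47 (q = 0.0488), a call lost without dpi 2 OL replicate 1 or 2 or dpi 10 OL replicate 1 or 2 (0.42 to 0.56). That call was also lost without both libraries of dpi 2 pool 2 (0.37), with DESeq2 size factors (0.46) and with library sizes alone (0.41).

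In total RNA Olig2 held 87.7, 98.3 and 88.2 CPM in naive tissue and 80.6, 68.1 and 105 CPM on dpi 2, and the groups overlapped (-0.11, 95% interval -0.44 to 0.22, q = 0.655). Its enrichment was 2.12 in naive tissue and 1.025, 1.81 and 1.51 at the 3 times after SCI. The differential enrichment was -1.08 on dpi 2 (SE 0.183, q = 0.00209), called under every alternative. On dpi 42 it was -0.65 (SE 0.183, q = 0.0471), with q over 0.05 without any one of naive total replicates 1 to 3, naive OL replicates 1 and 2, dpi 42 total replicates 1 and 2 or dpi 42 OL replicate 2. With the 5 libraries high in astrocyte markers left out it was -0.32, with 1 dpi 42 OL library left. It was -0.42 without dpi 42 total replicate 2 and -1.025 without dpi 42 OL replicate 3.

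Olig1 (chr16:91269772-91271933, plus strand), which is needed for OL maturation and remyelination, fell less than Olig2 on dpi 2. In OL libraries it stood at 1371, 1534 and 1727 CPM in naive tissue, 910, 758 and 1129 CPM on dpi 2, 1263, 1217 and 1244 CPM on dpi 10 and 1230, 1281 and 1306 CPM on dpi 42. None of the 9 libraries after SCI reached the lowest naive one. The change was -0.73 on dpi 2 (SE 0.121, q = 5.94e-05), -0.31 on dpi 10 (95% interval -0.55 to -0.08, q = 0.0773) and -0.28 on dpi 42 (-0.52 to -0.04, q = 0.0831). The rise from dpi 2 to dpi 10 was 0.41 (SE 0.121, q = 0.0167), or 0.63 without dpi 2 OL replicate 3. That call was lost without both libraries of dpi 2 pool 2 (0.28), with library sizes alone (0.35) and with only the groups compared (0.39). Between dpi 2 and dpi 42 the rise was 0.45 (q = 0.013). The later call was lost without dpi 2 OL replicate 2 or without that pool (0.32 each), and with only the groups compared (0.43). In total RNA Olig1 went the other way on dpi 2, at 430, 394 and 505 CPM against 355, 375 and 374 CPM in naive tissue (0.27, q = 0.0895). Its enrichment was 2.07 in naive tissue and 1.07 on dpi 2 on the log2 scale (differential enrichment -1.001, SE 0.124, q = 0.000312), and was 2.04 on dpi 10 and 1.95 on dpi 42. A long noncoding gene, Gm15966, shares 157 bases of exon with Olig1 on the other strand.

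**Figure D4:**
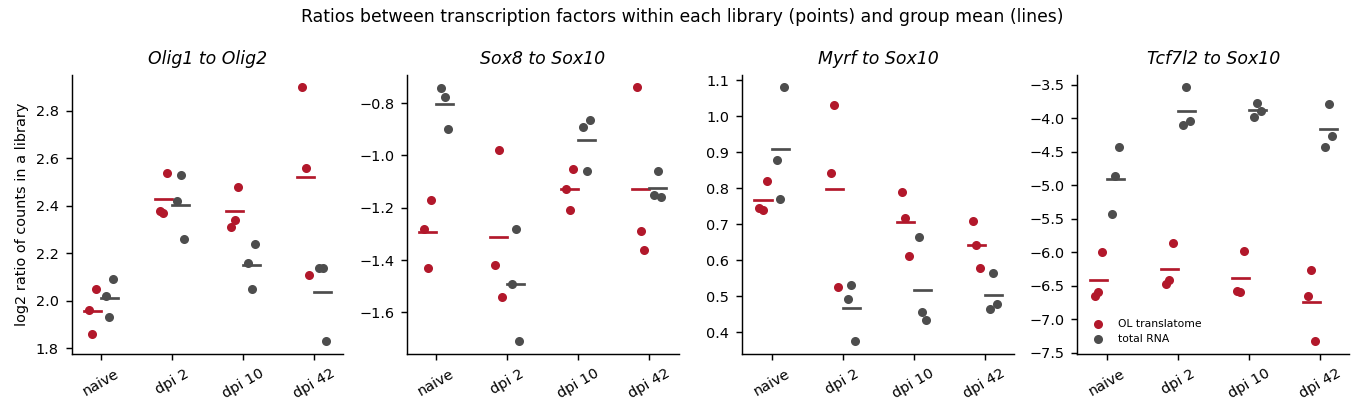
Log2 ratio of the counts of 2 transcription factors within each library, for 4 pairs, in the OL translatome (red) and total RNA (grey), with a line at the mean of 3 libraries. The ratio of Olig1 to Olig2 is above its naive range in all 9 OL libraries after SCI, and the ratio of Myrf to Sox10 is below its naive range in all 9 total RNA libraries after SCI.

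The ratio of Olig1 to Olig2 counts in OL libraries was 3.88, 3.64 and 4.13 in naive tissue. After SCI it was 5.19, 5.16 and 5.81 (dpi 2), 4.97, 5.08 and 5.59 (dpi 10) and 7.46, 5.91 and 4.32 (dpi 42). All 9 libraries after SCI were above the naive range (differences of 0.47, 0.42 and 0.57 on the log2 scale, exact permutation test, two-sided, p = 0.1 each). The 2 highest, dpi 42 OL replicates 1 and 2, were also the 2 highest in astrocyte markers (12300 and 10300 CPM), against 1940 CPM in replicate 3. In total RNA the ratio was 3.81 to 4.25 in naive tissue and 4.81 to 5.78 on dpi 2 without overlap, whereas dpi 10 (4.15 to 4.72) and dpi 42 (3.55 to 4.42) overlapped with naive.

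The homeodomain factors come next. Nkx6-2 (chr7:139579376-139582797, minus strand), a marker of myelinating OLs, was the only one of the 10 called higher in OLs against naive in the main fit (all libraries, TMM scaling). It stood at 332, 366 and 268 CPM in naive OL libraries, 583, 620 and 431 CPM on dpi 2, 466, 410 and 452 CPM on dpi 10 and 448, 423 and 594 CPM on dpi 42. All 9 libraries after SCI were above all 3 naive ones. The rise was 0.76 on dpi 2 (SE 0.148, q = 0.000323), or 1.69-fold, and held with each library left out. On dpi 10 it was 0.46 (SE 0.148, q = 0.034), a call lost without naive OL replicate 1 or 3 or any one of the dpi 10 OL libraries (0.34 to 0.51). On dpi 42 it was 0.60 (SE 0.148, q = 0.00342), and 0.36 (q = 0.0675) without dpi 42 OL replicate 3. All 3 values depended on the scaling of counts by gene length and GC content: with an offset for both they were 0.41 (q = 0.0655), 0.19 (q = 0.511) and 0.21 (q = 0.412). With a total RNA library as TMM reference they were 0.64, 0.37 and 0.47, and the dpi 10 value was not called (q = 0.104).

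In total RNA Nkx6-2 stood at 47.8, 50.6 and 42.5 CPM in naive tissue and 69.8, 67.2 and 58.3 CPM on dpi 2 (0.47, SE 0.149, q = 0.016), a call lost without naive total replicate 3 (0.40) or dpi 2 total replicate 1 or 2 (0.42 and 0.45). Its enrichment was 2.78, 3.06, 2.91 and 3.09 in naive and on dpi 2, 10 and 42, the highest of the 10 at each time after SCI, with differential enrichment of 0.28, 0.15 and 0.30 (q = 0.179, 0.656 and 0.178). Exons of Nkx6-2 share 246 bases with Inpp5a on the other strand. Inpp5a itself had OL levels of 120 ± 6.06 CPM in naive tissue and 153 ± 41.6 CPM on dpi 2 (SD, n = 3; change 0.34, q = 0.0577), below those of Nkx6-2.

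Nkx2-2 (chr2:147177546-147194243, minus strand), a repressor that promotes the step from OPC to OL, was not called in any comparison over time in the main fit (all libraries, TMM scaling). Its OL libraries held 112, 126 and 70.4 CPM in naive tissue. After SCI they held 144, 128 and 102 CPM (dpi 2), 130, 145 and 134 CPM (dpi 10) and 133, 112 and 175 CPM (dpi 42). Naive OL replicate 3 was the lowest of the 12, and only dpi 10 did not overlap with naive. The changes were 0.28 (95% interval -0.09 to 0.64), 0.40 (0.03 to 0.77) and 0.44 (0.07 to 0.81), with q = 0.267, 0.155 and 0.0773. Without the 5 libraries high in astrocyte markers, naive OL replicate 3 among them, they were 0.13, 0.14 and 0.53. The last rests on 1 dpi 42 OL library, the one at 175 CPM. The enrichment was 2.29, 2.16, 2.34 and 2.39 in the 4 conditions. Nkx2-2os on the other strand shares 278 bases of exon with it.

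Myrf (chr19:10208272-10240748, minus strand) encodes the factor that turns on and maintains myelin genes. Its OL libraries held 1853, 2071 and 1562 CPM in naive tissue, 1410, 1324 and 1030 CPM on dpi 2, 1839, 1582 and 1567 CPM on dpi 10 and 1140, 1273 and 1539 CPM on dpi 42. Dpi 2 and dpi 42 lay below naive without overlap, dpi 42 by a narrow margin, and dpi 10 overlapped. Myrf fell by 0.54 on dpi 2 (SE 0.127, q = 0.00175; -0.31, q = 0.0927, with the length and GC offset, and -0.47, q = 0.0614, when only naive and dpi 2 OL libraries were fitted) and by 0.47 on dpi 42 (SE 0.127, q = 0.00651), with -0.14 on dpi 10 (q = 0.518). The dpi 42 value was -0.37 without the libraries high in astrocyte markers, with 1 dpi 42 OL library left. It was -0.44 (q = 0.0776) when only naive and dpi 42 OL libraries were fitted. With the length and GC offset it was -0.34 (q = 0.0774). The rise from dpi 2 to dpi 10 was 0.41 (q = 0.0246) and lost its call without dpi 2 OL replicate 3 (0.34) or dpi 10 OL replicate 1 (0.39).

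In total RNA Myrf was at 257 to 268 CPM in naive tissue and 202 to 242 CPM on dpi 2 (-0.23, q = 0.164), and its differential enrichment of -0.31, -0.04 and -0.42 was not called (q = 0.266, 1 and 0.147). Relative to Sox10, which activates it, Myrf kept its place in OLs on dpi 2, with count ratios of 1.79, 2.04 and 1.44 that spanned the naive ratios of 1.68, 1.67 and 1.76. On dpi 42 the OL ratios of 1.63, 1.56 and 1.49 lay just below the naive range (difference -0.12 on the log2 scale, exact permutation test, two-sided, p = 0.1). In total RNA the ratio was 1.84, 1.71 and 2.12 in naive tissue and 1.3 to 1.58 in all 9 libraries after SCI, without overlap at any time (differences of -0.44, -0.39 and -0.41).

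The zinc finger genes differed in timing. Zfp536 (chr7:37472135-37773641, minus strand), a zinc finger repressor, held 152, 161 and 148 CPM in naive OL libraries, 105, 107 and 67.5 CPM on dpi 2, 167, 143 and 156 CPM on dpi 10 and 120, 116 and 140 CPM on dpi 42. Dpi 2 and dpi 42 lay below naive and dpi 10 overlapped it. The dpi 42 change of -0.29 was not called. The fall on dpi 2 was -0.72 (SE 0.142, q = 0.000373), and the rise to dpi 10 was 0.73 (SE 0.142, q = 0.000666), the largest of the 10. The difference between dpi 2 and dpi 42 was 0.42 (q = 0.0428) and lost its call without dpi 2 OL replicate 3 (0.24) or dpi 42 OL replicate 1 or 3 (0.48 and 0.32). That call was also lost with DESeq2 size factors (0.41), a total RNA library as TMM reference (0.41) and the length and GC offset (0.32). The same held without the 2 libraries with conflicting labels (0.45), with only the groups compared (0.40) and with a replicate block by number (0.44). In total RNA it fell on dpi 2 from 28.3, 31.2 and 32.8 to 19.7, 18.3 and 22.7 CPM (-0.60, SE 0.144, q = 0.00211), with -0.29 (q = 0.126) under the length and GC offset. The differential enrichment was -0.14 (95% interval -0.57 to 0.30, q = 0.82).

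Zfp488 (chr14:33967070-33978764, minus strand), a co-repressor that works with OLIG2, was not called in OLs on dpi 2. Its OL libraries held 17.2, 17.7 and 22.5 CPM in naive tissue, 15.6, 15.3 and 18.9 CPM on dpi 2, 15, 13.8 and 13.6 CPM on dpi 10 and 6.54, 9.33 and 13.6 CPM on dpi 42. Dpi 2 overlapped with naive, and dpi 10 and dpi 42 lay below it. The change was -0.20 on dpi 2 (q = 0.514), -0.44 on dpi 10 (q = 0.19) and -0.96 on dpi 42 (SE 0.222, q = 0.002). Without the 5 OL libraries high in astrocyte markers, dpi 42 OL replicates 1 and 2 among them, the dpi 42 value was -0.38, from 1 dpi 42 OL library. Fitted on naive and dpi 42 OL libraries alone it was -0.93 (q = 0.0609). Between dpi 2 and dpi 42 Zfp488 differed by -0.76 (q = 0.0209), with the call lost without dpi 2 OL replicate 3 (-0.65) or dpi 42 OL replicate 1 or 2 (-0.51 and -0.70). That difference was -0.14 without the 5 libraries high in astrocyte markers, with 1 dpi 42 OL library left.

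In total RNA Zfp488 stood at 7.08 to 8.75 CPM in naive tissue, 8.11 to 11 on dpi 2, 10.6 to 13.6 on dpi 10 and 7.01 to 8.94 CPM on dpi 42, and the dpi 10 value of 0.54 was not called (q = 0.069). Its enrichment went from 1.25 in naive (SE 0.223) and 0.86 on dpi 2 (SE 0.221, q = 0.00258) to 0.27 on dpi 10 (95% interval -0.16 to 0.70) and 0.27 on dpi 42 (-0.16 to 0.71). With library sizes alone as the scaling, the enrichment on dpi 2 was 0.29 (q = 0.27), and on dpi 10 and dpi 42 it was below 0. The differential enrichment was -0.96 on dpi 10 (q = 0.056) and -1.02 on dpi 42 (SE 0.28, q = 0.0438), and q for dpi 42 was over 0.05 with any 1 of the 12 naive and dpi 42 libraries left out, dpi 42 OL replicate 3 and dpi 42 total replicate 3 aside (-0.86 to -1.25). It was -0.71 without the 5 libraries high in astrocyte markers, with 1 dpi 42 OL library left.

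Tcf7l2 (chr19:55741820-55933654, plus strand), the effector of beta-catenin that peaks in newly formed OLs, was the lowest of the 10 per kilobase of exon union and the one called in total RNA at all 3 times. In total RNA it held 3.38, 5.19 and 5.61 CPM in naive tissue (103 to 177 counts), 10.1, 12 and 10.3 CPM on dpi 2, 10.6, 12.5 and 11.7 CPM on dpi 10 and 8.87, 12.1 and 8.96 CPM on dpi 42. All 9 libraries after SCI were above all naive ones. The rise was 1.19 on dpi 2 (SE 0.257, q = 0.000859), 1.29 on dpi 10 (SE 0.257, q = 0.00051) and 1.08 on dpi 42 (SE 0.256, q = 0.00406), or 2.11-fold to 2.45-fold, and was called with each library left out. In OL libraries it held 11.1, 12.8 and 13.8 CPM in naive tissue. After SCI it held 8.84, 7.58 and 12.3 CPM (dpi 2), 11.1, 10 and 16.2 CPM (dpi 10) and 6.96, 10.6 and 6.42 CPM (dpi 42), with changes of -0.39, -0.01 and -0.65 (q = 0.244, 1 and 0.053).

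The enrichment of Tcf7l2 was therefore 1.41 in naive tissue (SE 0.258, q = 7.73e-05) and -0.17 (95% interval -0.66 to 0.32), 0.10 (-0.39 to 0.59) and -0.32 (-0.82 to 0.17) on dpi 2, 10 and 42. With library sizes alone it was called lower in OL than in total RNA on dpi 2 and dpi 42. The differential enrichment was -1.63 on dpi 2 (SE 0.373, q = 0.0116), called in every alternative, and -1.36 on dpi 10 (q = 0.0439), where q was over 0.05 with any 1 of the 12 libraries left out (-1.16 to -1.68) and 0.0787 without the 5 libraries high in astrocyte markers (-1.35). On dpi 42 it was -1.77 (SE 0.374, q = 0.0127), with q = 0.0584 without naive total replicate 1 (-1.64). Microglia and macrophage markers rose in the same total RNA libraries, from 213 to 261 CPM in naive tissue to 1590 to 1950 CPM on dpi 2 and 4100 to 5530 CPM on dpi 10, and endothelial markers from 98.4 to 130 CPM to 179 to 279 CPM on dpi 2. Their part in the rise of Tcf7l2 was not tested. Relative to Sox10, Tcf7l2 in OL libraries had ratios of 0.00999 to 0.0156 in naive tissue and 0.0112 to 0.0172 on dpi 2, which overlapped.

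Genes that act with or under these factors were taken from fixed lists and are given by count and median. Of 17 myelin genes, the targets of SOX10 and MYRF, 8 fell and 1 rose in OLs on dpi 2, with a median of -0.34 against 0 over all genes. Of all tested genes, 20% were called lower and 18.4% higher. Among them was Ugt8a (-1.29, SE 0.22, q = 7.78e-05), which makes the myelin lipid galactosylceramide, while Cldn11 (1.32), the tight junction protein of myelin, was the one that rose. On dpi 10, 1 rose (Cldn11, 0.51) and none fell (9.62% of genes higher, 8.59% lower). On dpi 42, 7 fell, among them Ugt8a (-1.51), with a median of -0.28 (16.2% and 16.9%). From dpi 2 to dpi 10, 8 rose and 2 fell (11.7% and 10.6%). In total RNA on dpi 2, 8 fell and 1 rose (20.8% of genes lower, 16.4% higher). Their differential enrichment was called for 0 of 17 on dpi 2 (7.5% of genes higher, 5.81% lower), where 4 of the 10 factors had lost enrichment. The difference between the lists was not tested.

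Of 17 partners and chromatin regulators of the factors, 9 were lower and 2 higher in OLs on dpi 2 (20% and 18.4% of all tested genes), with a median of -0.35. The lowest were Ep300 (-1.21), a histone acetyltransferase, and Chd8 (-0.94), a chromatin remodeler, and the called higher ones were Tle3 (0.60), a co-repressor, and Tmem98 (0.42), which binds MYRF and blocks its cleavage. On dpi 10, 4 were lower and 1 higher (Tle3, 0.40), with 8.59% and 9.62% of all genes. On dpi 42, 11 were lower and 2 higher (16.9% and 16.2%), with a median of -0.51. Tcf12 (-1.34), the E protein that pairs with OLIG proteins, was the lowest. Their differential enrichment was lower for 6 of 17 (dpi 2), 4 (dpi 10) and 5 (dpi 42) genes, and higher for none. Of all genes, 5.81%, 3.14% and 3.51% were lower and 7.5%, 4.49% and 4.34% higher.

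Genes that hold OL differentiation back, 9 in all, stood at low levels in OLs, summed to 54.6, 62.8 and 292 CPM in naive OL libraries, the highest being the naive library high in astrocyte markers. In naive tissue 6 of 9 were depleted in OLs (30.5% of all tested genes were lower). After SCI Sox4 rose by 3.88, 2.80 and 2.08 on dpi 2, 10 and 42 and Sox11 by 2.69, 2.22 and 2.40, both SOXC genes of immature neural cells. These were the only genes of the list called in OLs on dpi 2 and dpi 10, and Id4 (1.51), an inhibitor of bHLH proteins, was also higher on dpi 42. Of all tested genes, 18.4%, 9.62% and 16.2% were called higher in OLs at the 3 times and 20%, 8.59% and 16.9% lower. The list summed to 415 and 337 CPM in dpi 42 OL replicates 1 and 2, both high in astrocyte markers, and to 103 CPM in replicate 3. Id4 was not tested without those libraries. Sox4 and Sox11 also rose in total RNA on dpi 2, by 1.17 and 1.40. Hes5, Hes1, Id2, Hey1, Sox5 and Sox6 were not called in OLs at any time.

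The genes whose pattern over the 8 group means came closest to each factor were ranked by root mean square difference in log2 CPM among 13676 genes. Sox8 had Zfp536 first, at a difference of 0.0987, and Zfp536 had Ldb3 (0.0719). Sox10 had Rnf43 (0.0862), Olig2 had Cdk5rap2 (0.0964), Nkx6-2 had Ppp1r14a (0.0982), Myrf had Ephb1 (0.1), followed by Slco3a1 (0.11) and Fa2h (0.116), and Nkx2-2 had Rhou (0.103). The closest for Tcf7l2 was Pml (0.114), for Zfp488 Fam117a (0.133) and for Olig1 Pop4 (0.144). The median over all genes was 0.666 for Zfp488, the lowest, and 1.59 for Nkx6-2, the highest. With 8 group means that share libraries, these distances are a description. Next in order were Adamtsl4 and Ppfibp2 for Sox10, Cmtm5 and Ppfibp2 for Sox8, Gpsm2 and Trim35 for Olig1, Ppp2r3a and Abtb2 for Olig2, Plpp2 and Mn1 for Nkx2-2, Cldn14 and Ddc for Nkx6-2, Mospd2 and Ankrd49 for Zfp488, Arhgap23 and Tmcc3 for Zfp536, and Zfp710 and Elf1 for Tcf7l2.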

How the data were processed

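The deposited file holds raw read counts per Ensembl gene, which the authors obtained by checking reads with FastQC 0.10.1, aligning them to mm10 with STAR and counting with HTSeq 0.10.0. The strand setting of the counting is not given in the sources used here. No column was left without a sample. Libraries are pools of 2 mice, so p-values measure a spread between pools. In the fit of all groups it is estimated per gene over OL and total RNA libraries together, also for comparisons within total RNA. Symbols were matched for 21939 of 21965 genes, and positions and exon lengths come from GENCODE M21 (GRCm38).

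Genes with at least 10 counts in sum over 24 libraries were kept. All libraries entered 1 fit of 8 group means with edgeR 4.0.16 (quasi-likelihood F test, TMM scaling, Benjamini-Hochberg adjustment over 17167 genes) in R 4.3.3. Differential OL enrichment was fitted with the 12 tissue pools as a block, as in the study, whose methods pair the libraries made from 1 tissue sample. Over genes, deviations of paired libraries from their group means correlated with r of 0.0408 to 0.137 in naive tissue, 0.0879 to 0.108 on dpi 2, 0.0245 to 0.063 on dpi 10 and -0.0109 to 0.02 on dpi 42. Unpaired libraries reached 0.0502 in naive tissue, -0.0184 on dpi 2, 0.0117 on dpi 10 and 0.0253 on dpi 42. On dpi 42 the correlations therefore do not tell pairs from non-pairs. Count ratios were compared with exact permutation tests. Levels per kilobase used the union of exons. On simulated counts with known changes, 47% of genes changed by 1 and 81% of genes changed by 2 on the log2 scale were recovered for the OL change on dpi 2, and 19% and 69% for differential enrichment on dpi 2 (16852 genes).

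The 10 factors, the gene lists and the motifs were chosen with earlier results of these data known. List genes with values are those with the 2 highest and 2 lowest fold changes among the called (some values are not reported here), the 3 nearest patterns are given for each factor, and list counts come from the fit of all libraries alone. The inhibitors called later and the uncalled ones were named after their values were seen. Alternatives were DESeq2 1.42.0 (Wald test, size factors), library sizes alone, a total RNA library as TMM reference, other filters, a length and GC offset, only the groups compared, the replicate block, each library left out, both libraries of dpi 2 pool 2 left out, the 2 libraries with conflicting labels left out, and, added after seeing the data, the 5 OL libraries high in astrocyte markers left out.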

Additional observations from a re-analysis of the deposited data

Results flagged for a closer look

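In the OL translatome 6 factors differed between dpi 10 and dpi 2, all higher on dpi 10: Zfp536 by 0.73, Sox8 by 0.69, Sox10 by 0.50, Olig2 by 0.47, Olig1 by 0.41 and Myrf by 0.41 on the log2 scale, each with q under 0.05. Of all tested genes, 11.7% were called higher and 10.6% lower. The calls of Olig2, Olig1 and Myrf were lost in 7, 3 and 4 of 18 alternative fits. Between dpi 42 and dpi 2, Olig1 (0.45), Zfp536 (0.42) and Sox8 (0.41) were higher on dpi 42 and Zfp488 (-0.76) was lower (8.91% of genes higher, 8.66% lower). With only the groups compared in the fit, none of these was called.

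OL enrichment differed between injured and naive tissue for 4 factors on dpi 2, Tcf7l2 (-1.63), Olig2 (-1.08), Olig1 (-1.001) and Sox10 (-0.79). Of all tested genes, 7.5% were called higher and 5.81% lower. On dpi 10 OL enrichment differed for Tcf7l2 (-1.36), a call lost in 13 of 24 alternative fits (4.49% of genes higher, 3.14% lower). On dpi 42 it differed for Tcf7l2 (-1.77), Zfp488 (-1.02), Sox10 (-0.70) and Olig2 (-0.65), with 4.34% of genes higher and 3.51% lower. None of these dpi 42 calls held with only the groups compared in the fit. Those of Zfp488 and Olig2 were also lost with several single libraries left out.

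The study used female mice for SCI, and 4 Y-linked genes had 2604 counts in dpi 2 total replicate 2 and 2414 counts in dpi 2 OL replicate 2, which come from the same tissue pool, against 13 and 7 counts in the naive replicate 3 libraries and 0 to 2 counts in the others. Without that pool the 7 factors called in OLs on dpi 2 were again 7 in number. Olig1 (0.28) and Olig2 (0.37) were then not called for dpi 10 against dpi 2. The same held for Olig1 between dpi 42 and dpi 2 (0.32) and for the differential enrichment of Olig2 on dpi 42 (-0.65).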

How the results depend on the processing

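Of 160 values (10 factors, 16 comparisons), 73 were called. No called value changed sign under any alternative, 50 kept their call in every fit and 23 lost it in at least 1. Of the counts of called factors, 243 of 306 were within 1.5 times the main count. The other counts, with the main count in brackets, were as follows. With the DESeq2 Wald test, total RNA had 4 on dpi 10 [1] and 2 on dpi 42 [1], and differential enrichment on dpi 10 had 3 [1]. With DESeq2 size factors, total RNA on dpi 42 had 2. With library sizes alone, total RNA had 6 on dpi 10 and 3 on dpi 42, and differential enrichment on dpi 10 had 3. With a total RNA library as TMM reference, OLs on dpi 42 had 8 [4], 1 higher and 7 lower, total RNA had 4 on dpi 10 and 2 on dpi 42, and differential enrichment on dpi 10 had 3. With filterByExpr, differential enrichment on dpi 10 had 2. With the length and GC offset, total RNA had 3 on dpi 10 and 2 on dpi 42, dpi 42 against dpi 2 had 2 [4], and differential enrichment on dpi 10 had 2. With only the groups compared, OLs on dpi 42 had 2, total RNA had 7 on dpi 2 [4], 7 on dpi 10 and 4 on dpi 42, dpi 42 against dpi 2 had 0, and differential enrichment had 3 on dpi 10 and 0 on dpi 42 [4]. Without dpi 2 pool 2, total RNA on dpi 10 had 3. Without the 2 libraries with conflicting labels, total RNA on dpi 10 had 3, dpi 42 against dpi 2 had 2, and differential enrichment had 2 on dpi 10 and 2 on dpi 42. Without the OL libraries high in astrocyte markers, total RNA had 7, 6 and 4 on dpi 2, 10 and 42. The count for differential enrichment on dpi 42 also moved, with 1 dpi 42 OL library left. The cause was not tested.

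Without the replicate block of tissue pools, differential enrichment on dpi 42 had 2 called factors. Replicate numbers across times share only a number (correlations of -0.309 to 0.248 in OL and -0.0456 to 0.0637 in total RNA), and a replicate block by number left 1 called in OLs on dpi 10 [2] and moved no other count by over 1.5 times.

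With each library left out in turn, the counts ran from 1 to 2 for OLs on dpi 10, 0 to 3 for dpi 42 against dpi 10 (3 without dpi 42 OL replicate 3), 1 to 3 for dpi 42 against dpi 2, 0 for differential enrichment on dpi 10, and 1 to 5 for differential enrichment on dpi 42.

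Values that turned sign were uncalled ones. Tcf7l2 enrichment was 0.0537 on dpi 2 without dpi 2 pool 2, and on dpi 10 it was -0.47 with library sizes alone, -0.0209 with the total RNA reference, -0.0132 with the length and GC offset and -0.10 to 0.28 with each library left out (lowest without dpi 10 OL replicate 3). Zfp488 enrichment with library sizes alone was -0.31 on dpi 10 and -0.24 on dpi 42, and on dpi 42 ran from -0.0497 (without dpi 42 OL replicate 3) to 0.52 with each library left out. Nkx2-2 in OLs on dpi 2 ran from -4.71e-05 (without naive OL replicate 3) to 0.38 with each library left out, and Sox8 in total RNA on dpi 10 was -0.0116 with the length and GC offset. Without the OL libraries high in astrocyte markers, dpi 42 against dpi 10 was 0.33 for Olig2, and dpi 42 against dpi 2 was 0.03 for Nkx6-2.

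Library sizes alone moved the median of all genes by -0.50 to -0.58 for enrichment. With that scaling 2 factors were called higher and 6 lower in OLs on dpi 2, 2 higher and 1 lower on dpi 10, and 2 higher and 3 lower on dpi 42, and with the total RNA reference 0 and 2 on dpi 10. Depth limits Tcf7l2, with 103 to 433 counts a library, and Zfp488, with 187 to 588. On simulated data 19% of differential enrichments of 1 on the log2 scale were recovered on dpi 2. The changed genes were drawn at random from all genes above a low mean count, so this is not the share for Tcf7l2 or Zfp488.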

Other observations

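Other factors of the OL lineage, 14 genes outside the 10, were counted in OLs as well. On dpi 2, 3 rose and 2 fell, near the shares of all tested genes (18.4% higher, 20% lower). Rxrg, a nuclear receptor linked to remyelination, rose by 2.42 (SE 0.513, q = 0.000718). Klf9, a thyroid hormone-induced factor, was at -1.39 and St18, a zinc finger factor, at -1.15. On dpi 10, 1 rose and 3 fell (9.62% of genes higher, 8.59% lower), and on dpi 42, 1 rose and 2 fell (16.2% and 16.9%). Rxrg was at 2.18 and 2.51 and Klf9 at -0.94 and -0.91.

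Of 6 markers of newly formed OLs, 3 rose and 1 fell in OLs on dpi 2 (18.4% of all tested genes higher, 20% lower). Rras2, a small GTPase, rose by 2.53, Cemip2 by 0.97, and Enpp6, a choline phosphodiesterase of newly formed OLs, was at -0.80. Of 11 OPC markers, 2 rose and 1 fell on dpi 2, no more than those shares of all genes. Matn4 was at 1.51, Cspg4 at 0.86 and Gpr17 at -0.91.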
